A study of Homo sapiens with 22 samples.

Results

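The transcription factor ATF4 and 47 genes that supply cells with amino acids or belong to the ATF4 stress response were followed across 8 groups of H1299 cells. The 48 genes were taken by symbol from a list of ATF4 and its partner and feedback factors, stress effectors, enzymes of amino acid and one-carbon synthesis, amino acid transporters, and tRNA charging and export. All 48 were found among the 37908 genes of the count table. H1299 cells derive from a human lung carcinoma of the non-small cell type and carried here a shRNA against BRCA2 that doxycycline (DOX) switches on. BRCA2-proficient cells had no DOX, and BRCA2-deficient cells had 2 µg/mL over 3 days. Both were given control siRNA or siRNA against β-catenin (siβ-catenin), and in the last 24 h some received LY2090314 at 250 nM, which blocks the kinase GSK3 (GSK3i). Control siRNA without GSK3i is called untreated. Gene expression was measured by RNA-seq of poly(A)-enriched RNA in 22 libraries, 3 in each group except the BRCA2-proficient untreated and siβ-catenin groups, which held 2. All groups carried the shRNA, and DOX went only to BRCA2-deficient cells, so DOX and BRCA2 depletion cannot be told apart. The study's methods describe the replicates as independent experiments. In bulk RNA fewer expressing cells and less RNA per cell cannot be told apart.

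Cells that lack amino acids or are otherwise stressed phosphorylate the translation initiation factor eIF2α, which lowers protein synthesis overall but raises the translation of ATF4. ATF4 pairs with C/EBP factors at amino acid response elements and switches on genes for amino acid uptake, synthesis and tRNA charging, together with feedback inhibitors such as TRIB3 and PPP1R15A. Because ATF4 is controlled mostly at translation and by protein turnover, the level of its RNA need not follow the level of its protein, which was not measured by this assay.

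The sequence that ATF4 and C/EBP dimers are known to bind is shown first, as it occurs near the start sites of the genes that the results describe. The letters TGATGNAA were searched on both strands, with N as any base, in the 300 bases around each start site, 250 before and 50 after (RefSeq, GRCh38.p14). They occurred in 11 of the 41 member genes with an entry (26.8%) and in 1003 of 27305 promoters of all genes (3.67%). Of the 11 tRNA synthetase and export genes with an entry 6 held them, and of 6 other cytosolic tRNA synthetases none did. Shown are the tRNA synthetase genes, with ASNS and CHAC1 from the groups for synthesis and stress, each on the strand of the gene with the 8 matching bases in capitals.
ASNS, chr7:97872458-97872487, - strand: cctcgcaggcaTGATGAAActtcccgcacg
CHAC1, chr15:40953251-40953280, + strand: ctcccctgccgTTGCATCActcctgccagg
AARS1, chr16:70289675-70289704, - strand: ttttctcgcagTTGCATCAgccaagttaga
CARS1, chr11:3057407-3057436, - strand: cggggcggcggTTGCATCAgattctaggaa
IARS1, chr9:92293692-92293721, - strand: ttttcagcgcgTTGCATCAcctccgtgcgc
MARS1, chr12:57488053-57488082, + strand: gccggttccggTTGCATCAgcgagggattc
NARS1, chr18:57621804-57621833, - strand: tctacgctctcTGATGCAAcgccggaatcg
TARS1, chr5:33440956-33440985, + strand: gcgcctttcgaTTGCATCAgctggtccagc
In ASNS and NARS1 the letters read along the strand of the gene, and in the other 6 on the opposite strand. The match began 68 bases before the start site in ASNS, 209 before in CHAC1 and 187 before in AARS1, and within 15 bases of it in the other 5. ATF3, SLC3A2 and SLC7A1 also held a match. A match in these letters describes the sequence and was not tested as a binding site.

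Between 18.9 M and 29.3 M counts were obtained per library (median 23.2 M), of which the 48 genes took 0.575% to 1.52%. BRCA2 had 71.4 to 225 normalised counts in BRCA2-deficient libraries and 514 to 1111 in BRCA2-proficient ones, and CTNNB1, the gene of β-catenin, 977 to 2217 after siβ-catenin and 5206 to 8669 after control siRNA. The β-catenin target AXIN2 had 1027 to 1747 with GSK3i and control siRNA, and 59.5 to 82.4 without GSK3i. The tissue markers KRT8, KRT18 and VIM were each at 2037 or more in all libraries, and the leukocyte gene PTPRC was at most 1.57. Those 4 genes, and the 2 that follow, were chosen after their values were seen.

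For 2 libraries the genes that GSK3i lowers went against the label. PDCD4, an inhibitor of translation initiation, was at 108 to 164 normalised counts where GSK3i was given with control siRNA (6 libraries) and at 1551 to 1920 where it was not (5 libraries). YPEL2, a gene of unclear function, had 9.02 to 28.6 and 232 to 368. In BRCA2-deficient cells given siβ-catenin the same separation held. In BRCA2-proficient cells, however, the library labelled GSK3i and siβ-catenin replicate 2 had 1998 counts of PDCD4 and 304 of YPEL2. The library labelled siβ-catenin replicate 2 had 291 and 35.3, and the other library of that group 1056 and 126, between the ranges with and without GSK3i. AXIN2, which GSK3i raises, did not set these 2 libraries apart, at 67.2 and 65.0 in replicates 2 and 3. With both treatments it was at 145, 73.1 and 117 in replicates 1, 2 and 3. In BRCA2-deficient cells given siβ-catenin it had 80.8 to 96.9 without GSK3i and 117.5 to 227 with it. Comparisons that use BRCA2-proficient siβ-catenin libraries are therefore given with and without the libraries in doubt, and no sample was moved to another group.

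**Figure D1:**
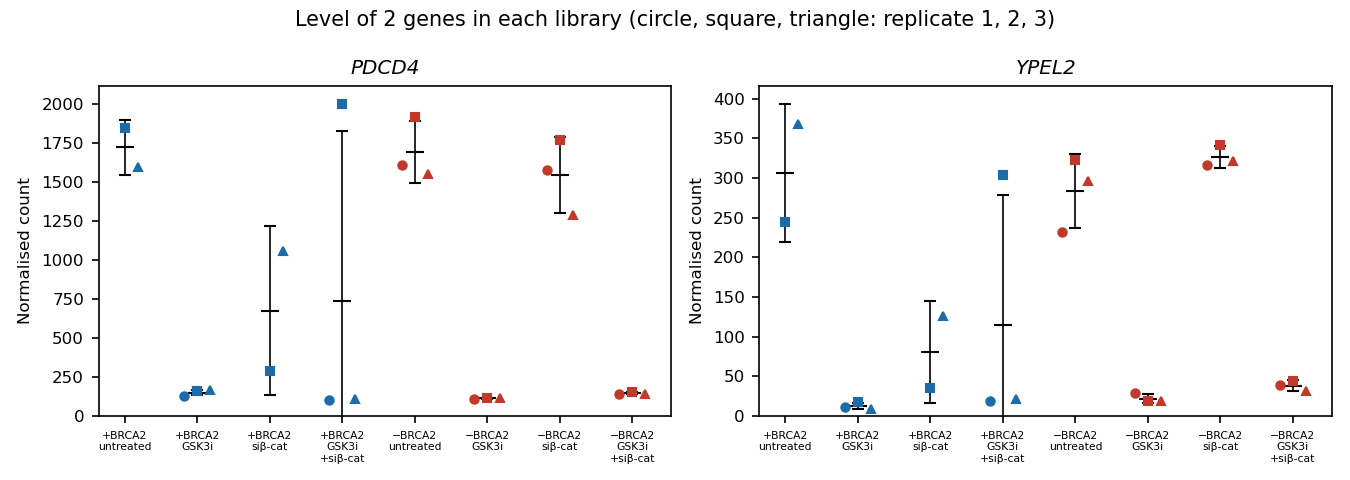
Normalised counts of PDCD4 and YPEL2 (vertical axes) in every library of the 8 groups, with circle, square and triangle for replicates 1, 2 and 3 and a bar for the mean ± SD. Replicate 2 of both BRCA2-proficient siβ-catenin groups lies outside the range that its label has elsewhere, and replicate 3 of the siβ-catenin group (1056 and 126) lies between the ranges with and without GSK3i.

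With control siRNA, the median of the 48 genes was higher with GSK3i and lower in BRCA2-deficient cells. A gene was called when its adjusted p from DESeq2 was below 0.05 and its log2 fold change beyond 0.5 in size, and only called genes are said to rise or fall. With GSK3i, 27 of the 48 genes rose in BRCA2-proficient cells, where 11.8% of the 16770 genes tested rose, and 1 fell, where 14.2% fell. In BRCA2-deficient cells 30 rose, against 11.6% of 16860, and 2 fell, against 13.8%. The median log2 fold change of the 48 genes was 0.68 and 0.66, and that of all genes tested -0.00 and 0.02. BRCA2-deficient cells had 27 of the 48 genes lower than BRCA2-proficient cells without treatment, against 4.14% of 17154 genes, and 29 lower under GSK3i, against 3.05% of 16329. None was higher in either by DESeq2 or edgeR, with 0 at an unadjusted p below 0.05. Here the medians were -0.69 and -0.63, against 0.00 and -0.00 for all genes. Leaving out 1 library moved the first from -0.42 (without replicate 3 of untreated BRCA2-proficient cells) to -0.88 (without replicate 2), and the second from -0.62 to -0.73.

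These counts were lower under some other fits. The quasi-likelihood test of edgeR had 28 and 28 of the 48 genes higher with GSK3i, against 12.2% and 10% of all genes, and 11 and 21 lower in BRCA2-deficient cells, against 1.3% and 1.7%. The untreated comparison of BRCA2 status leaned on single libraries. Without replicate 3 of the untreated BRCA2-proficient cells 7 genes were called lower, against 0.838% of all genes. Such a fit leaves 1 library in that group, which is assumed to vary as the other group does. Without replicate 2 of the untreated BRCA2-deficient cells 16 were called. With GSK3i in BRCA2-proficient cells, 21 of 28 calls held in every fit without 1 library. PHGDH, ASNS, CBS, SLC3A2, AARS1, CEBPB and CEBPG were each lost in at least 1, and all 7 without replicate 2 of the untreated cells. In BRCA2-deficient cells 27 of 32 held, with SLC6A9, MARS1, XPOT, SLC7A1 and PPP1R15A lost in at least 1. The genes called lower in all fits by BRCA2 status without treatment were ASNS, CHAC1, PSAT1, SESN2 and SLC7A5.

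**Figure D2:**
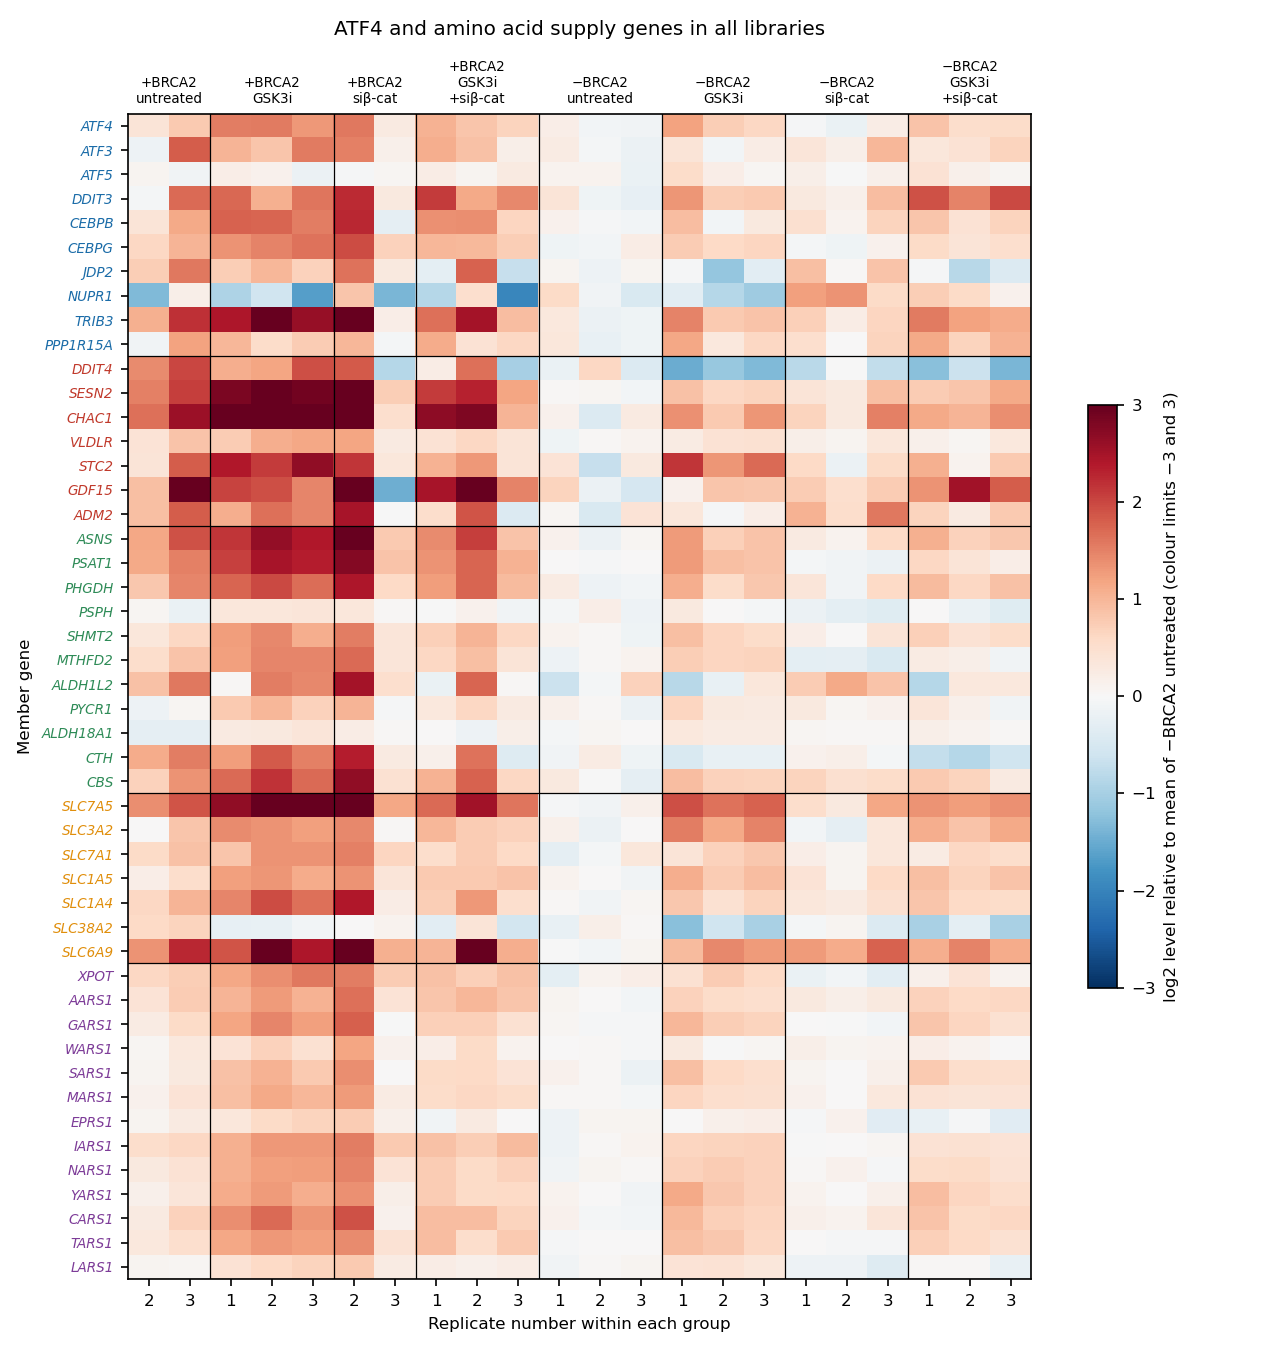
Level of each of the 48 genes (rows, coloured by role) in each of the 22 libraries (columns), as log2 relative to the mean of untreated BRCA2-deficient cells. Most rows are highest in the BRCA2-proficient libraries with GSK3i and in the library labelled siβ-catenin replicate 2, while SLC38A2 and DDIT4 are lowest in BRCA2-deficient cells with GSK3i and control siRNA, by group mean.

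Across libraries the median level of the 48 genes was ordered in the same way. On the log2 scale, relative to the mean of untreated BRCA2-deficient cells, it was 0.61 to 0.75 with GSK3i in BRCA2-deficient cells, 0.40 and 0.86 in untreated BRCA2-proficient cells, and 1.17 to 1.35 with GSK3i in BRCA2-proficient cells. The BRCA2-deficient GSK3i libraries and the untreated BRCA2-proficient libraries thus overlapped. The highest median of all, 1.61, was in the library labelled siβ-catenin replicate 2 of BRCA2-proficient cells.

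Among the 10 transcription factors and feedback genes, 3 rose with GSK3i in BRCA2-proficient cells and 5 in BRCA2-deficient cells, while 5 and then 6 were lower in BRCA2-deficient cells. ATF4 (ENSG00000128272, chr22:39915700-39918688 on GRCh37, as for all genes that follow) had 5632 and 7375 normalised counts in untreated BRCA2-proficient libraries and 12468, 12579 and 10510 with GSK3i. In BRCA2-deficient cells it had 4884, 4032 and 3969 untreated and 9924, 7164 and 6581 with GSK3i. The groups did not overlap in any of these pairs, apart from the untreated BRCA2-proficient and the GSK3i-treated BRCA2-deficient libraries. The log2 fold change with GSK3i was 0.85 ± 0.15 (SE, adjusted p = 3.93e-07) in BRCA2-proficient cells and 0.88 ± 0.20 (SE, adjusted p = 0.000183) in BRCA2-deficient cells. Between BRCA2-deficient and -proficient cells it was -0.62 ± 0.19 (SE, adjusted p = 0.0188) untreated and -0.60 ± 0.18 (SE, adjusted p = 0.0132) under GSK3i. The 2 calls by BRCA2 status were not made by edgeR nor without some single libraries (replicate 2 or 3 of untreated BRCA2-proficient cells, replicate 2 of untreated BRCA2-deficient cells, and 4 of the 6 GSK3i libraries in turn). The RNA of the factor itself was 1.8- and 1.83-fold higher with GSK3i.

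TRIB3, a pseudokinase that ATF4 induces and that restrains it in turn, had the largest difference between BRCA2 states of these factors. It lay (chr20:343479-378203) at 1368 and 3008 counts in untreated BRCA2-proficient cells and 3520, 5870 and 3981 with GSK3i, against 809, 578 and 596 untreated and 1842, 1118 and 1173 with GSK3i in BRCA2-deficient cells. At each treatment all BRCA2-deficient libraries were below all BRCA2-proficient ones. Its log2 fold changes by BRCA2 status were -1.75 ± 0.31 (SE, adjusted p = 3.01e-06) untreated and -1.71 ± 0.25 (SE, adjusted p = 1.02e-09) under GSK3i. With GSK3i it rose in BRCA2-deficient cells, by 1.06 ± 0.25 (SE, adjusted p = 0.000207). In BRCA2-proficient cells the value was 1.01 ± 0.51 (SE, adjusted p = 0.11), where the untreated libraries lay far apart. CEBPG, a C/EBP factor that pairs with ATF4 (chr19:33864591-33873592), had 3723 and 4916 counts untreated and 6122, 6831 and 7459 with GSK3i in BRCA2-proficient cells. Its BRCA2-deficient values were 2209, 2275 and 2825 untreated and 4099, 3662 and 3789 with GSK3i. It moved with little spread, rising by 0.64 ± 0.15 and 0.66 ± 0.16 with GSK3i (adjusted p = 0.000228 and 0.000436), and differing by -0.85 ± 0.21 and -0.83 ± 0.13 between BRCA2 states (adjusted p = 0.00172 and 8.31e-08).

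DDIT3, the pro-apoptotic factor also called CHOP (chr12:57910371-57915520), had 436, 302 and 280.4 counts in untreated BRCA2-deficient cells and 834, 559.7 and 570.4 with GSK3i, and its rise was 0.95 ± 0.25 (SE, adjusted p = 0.00124). In BRCA2-proficient cells it had 319 and 1074 untreated and 1092, 702 and 1020 with GSK3i, with overlap, and a log2 fold change of 0.41 ± 0.66 (SE, adjusted p = 0.673). By BRCA2 status under GSK3i the value was -0.53 ± 0.22 (SE, adjusted p = 0.129), and with the replicate number as a block -0.52 ± 0.14, adjusted p = 0.00281. DDIT3 and MARS1 share 355 exonic bases at their ends on opposite strands, 27.2% of the DDIT3 exons. As the strand setting of the counting is not given in the sources used here, reads there cannot be assigned with certainty. JDP2, a repressor of the AP-1 family (chr14:75894419-75940814), had 249.6 and 450.2 counts untreated and 252, 300.4 and 242 with GSK3i in BRCA2-proficient cells, and 159.5, 134 and 158 untreated and 147, 66.3 and 121 with GSK3i in BRCA2-deficient cells. It was lower in BRCA2-deficient cells, with log2 fold changes of -1.24 ± 0.29 (SE, adjusted p = 0.00104) untreated and -1.27 ± 0.28 (SE, adjusted p = 0.000331) under GSK3i, and its values with GSK3i were -0.42 ± 0.25 and -0.44 ± 0.31, neither called. CEBPB, a further C/EBP factor, was called in BRCA2-proficient cells (0.86 ± 0.21, against 0.44 ± 0.27), a difference that was not called (interaction -0.44 ± 0.38, adjusted p = 1). PPP1R15A, the phosphatase subunit that reverses eIF2α phosphorylation, rose in BRCA2-deficient cells by 0.72 ± 0.26 (SE, adjusted p = 0.0216), though the groups overlapped. ATF3 was lower in BRCA2-deficient cells under GSK3i (-0.99 ± 0.24, adjusted p = 0.00113). ATF5 and NUPR1 were called in none of these 4 comparisons, though with the replicate number as a block NUPR1 was lower with GSK3i in BRCA2-deficient cells (-0.76 ± 0.25, adjusted p = 0.00656).

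The 7 stress effectors had the largest median difference between BRCA2 states. Of these 6 were lower in BRCA2-deficient cells untreated and 6 under GSK3i, with a median log2 fold change of -1.70 and -1.26. CHAC1, an enzyme that degrades glutathione (chr15:41245160-41248710), had 446 and 845 counts in untreated BRCA2-proficient cells and 1658, 1541 and 1899 with GSK3i. In BRCA2-deficient cells it had 156, 107 and 173 untreated and 367, 246 and 358 with GSK3i, all below the lowest BRCA2-proficient library with control siRNA. It was 4.52-fold lower untreated (log2 -2.18 ± 0.32, adjusted p = 6.04e-09) and 5.28-fold lower under GSK3i (log2 -2.40 ± 0.19, adjusted p = 3.09e-32). With GSK3i it rose in both states, by 1.38 ± 0.22 (SE, adjusted p = 4.71e-09) and 1.15 ± 0.26 (SE, adjusted p = 0.000148). SESN2, a leucine-binding inhibitor of mTORC1 (chr1:28586029-28609002), had 1048 and 1548 untreated and 2611, 3355 and 2738 with GSK3i in BRCA2-proficient cells, and 375, 381 and 349 untreated and 676, 565 and 582 with GSK3i in BRCA2-deficient cells. It followed the same order as CHAC1, with log2 fold changes by BRCA2 status of -1.84 ± 0.22 (SE, adjusted p = 7.82e-14) untreated and -2.26 ± 0.16 (SE, adjusted p = 3.27e-42) under GSK3i. Its rise with GSK3i was 1.14 ± 0.18 and 0.72 ± 0.17 (adjusted p = 6.66e-09 and 0.00017).

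DDIT4, another inhibitor of mTORC1 (chr10:74033678-74035794), did not follow that order. It had 1304 and 1975 counts untreated and 1038, 1116 and 1863 with GSK3i in BRCA2-proficient cells, with overlap. In BRCA2-deficient cells it went from 422, 756 and 365 to 174, 220.2 and 196 and fell (log2 -1.39 ± 0.29, adjusted p = 2.5e-05). The value in BRCA2-proficient cells was -0.31 ± 0.23 (SE, adjusted p = 0.321), and the interaction, -1.10 ± 0.45 (SE, adjusted p = 1), was not called. By BRCA2 status it was 3.24-fold lower untreated (adjusted p = 1.15e-05, lost without replicate 1 of the untreated BRCA2-deficient cells) and 6.82-fold lower under GSK3i (log2 -2.77 ± 0.25, adjusted p = 5.17e-25), the largest difference of any member in that comparison. STC2, a secreted glycoprotein (chr5:172741726-172755450), had 641, 302 and 592 counts in untreated BRCA2-deficient cells and 2168, 1211 and 1583 with GSK3i, a rise of 1.69 ± 0.31 (SE, adjusted p = 1e-06). In BRCA2-proficient cells it had 639.7 and 1712 untreated and 2576, 2080 and 3063 with GSK3i (log2 1.11 ± 0.53, adjusted p = 0.0897). It was not called by BRCA2 status, with -1.22 ± 0.65 untreated and -0.65 ± 0.23 under GSK3i, though with the replicate number as a block the latter was -0.66 ± 0.13, adjusted p = 1.32e-05. GDF15, a secreted member of the TGF-β family with few counts, had 27.9 and 161 in the 2 untreated BRCA2-proficient libraries and 23.8, 13.0 and 10.2 in BRCA2-deficient ones. Its difference of -2.63 ± 0.67 (SE, adjusted p = 0.00304) was the largest of any member there and rested on 2 libraries that differ several-fold. Under GSK3i it was -1.22 ± 0.38 (SE, adjusted p = 0.0205), and with the replicate block -1.24 ± 0.48, adjusted p = 0.0501. The peptide hormone gene ADM2 and the lipoprotein receptor VLDLR were also lower in BRCA2-deficient cells, ADM2 with -1.42 ± 0.36 untreated and -1.26 ± 0.23 under GSK3i, VLDLR with -0.67 ± 0.21 and -0.62 ± 0.17.

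**Figure D3:**
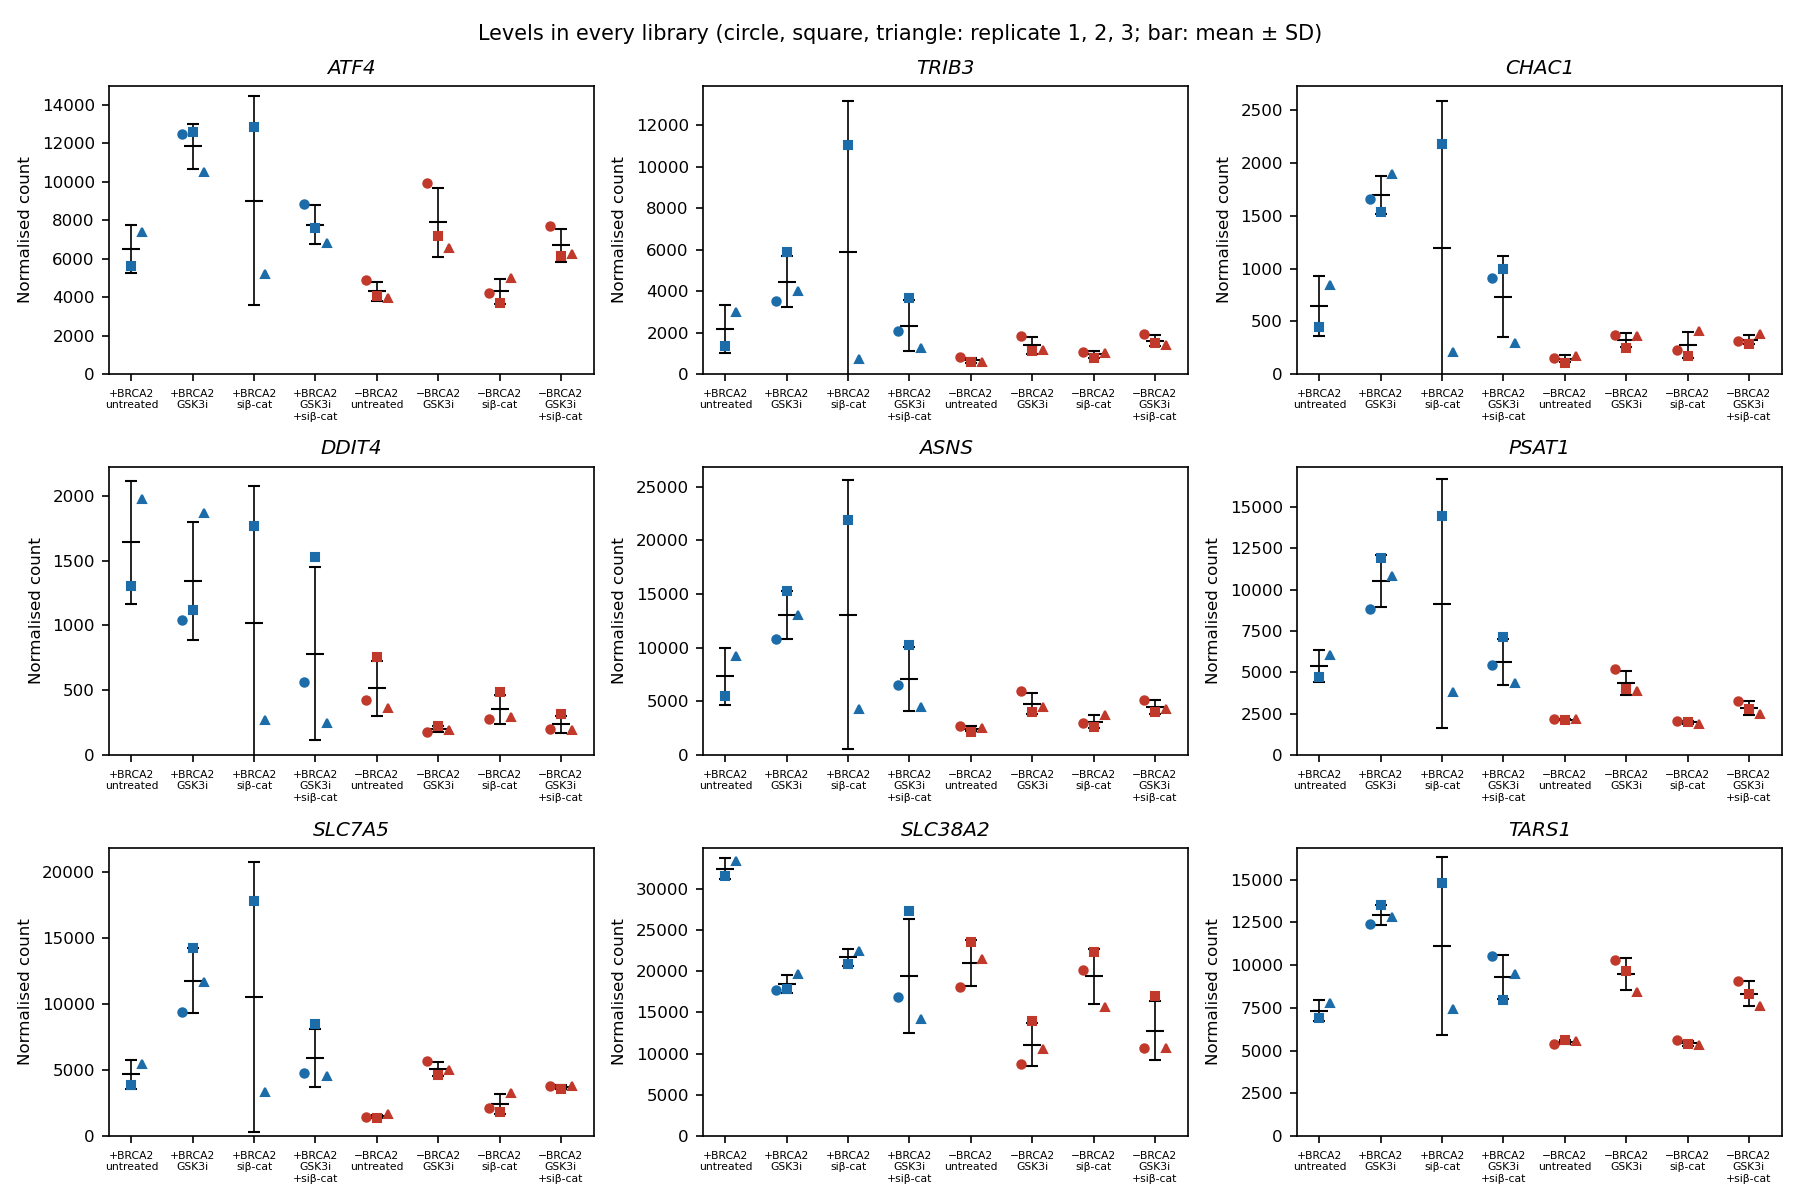
Normalised counts (vertical axes) of 9 member genes in every library of the 8 groups, with circle, square and triangle for replicates 1, 2 and 3 and a bar for the mean ± SD. With control siRNA, ATF4, CHAC1, ASNS, PSAT1 and SLC7A5 are higher with GSK3i and lower in BRCA2-deficient cells. Also with control siRNA, TARS1 differs mostly with GSK3i, and SLC38A2 is lower with GSK3i.

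Of 11 enzymes of amino acid and one-carbon synthesis, 8 rose with GSK3i in BRCA2-proficient cells and 6 in BRCA2-deficient cells, and 8 were lower in BRCA2-deficient cells in each of the 2 comparisons by BRCA2 status. ASNS, which makes asparagine (chr7:97480989-97501854), had 5448 and 9212 counts untreated and 10780, 15298 and 13006 with GSK3i in BRCA2-proficient cells. Its BRCA2-deficient values were 2676, 2167 and 2539 untreated and 5914, 3999 and 4448 with GSK3i. It was 3.03-fold lower in untreated BRCA2-deficient cells (log2 -1.60 ± 0.24, adjusted p = 1.66e-08) and 2.74-fold lower under GSK3i (log2 -1.45 ± 0.19, adjusted p = 2.48e-11). With GSK3i it rose by 0.82 ± 0.20 (SE, adjusted p = 0.000397) and 0.96 ± 0.20 (SE, adjusted p = 1.9e-05). The first ran from 0.49 to 1.24 when 1 library was left out and was called in 2 of 5 such fits, and the second was called in all 6. PSAT1, the transaminase of serine synthesis (chr9:80912041-80945009), had 4693 and 6042 untreated and 8819, 11909 and 10844 with GSK3i in BRCA2-proficient cells, and 2156, 2091 and 2146 untreated and 5188, 3993 and 3840 with GSK3i in BRCA2-deficient cells. The 3 untreated BRCA2-deficient libraries were nearly equal, and all groups were apart except for untreated BRCA2-proficient and GSK3i-treated BRCA2-deficient cells. PSAT1 differed by -1.36 ± 0.17 (SE, adjusted p = 8.48e-12) untreated and -1.29 ± 0.18 (SE, adjusted p = 7.14e-11) under GSK3i between BRCA2 states, and rose by 0.96 ± 0.16 and 1.02 ± 0.17 with GSK3i (adjusted p = 8.35e-08 and 5.41e-08).

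The other enzymes of the serine and one-carbon pathway divided. PHGDH, its first enzyme, rose with GSK3i by 0.62 ± 0.19 and 0.82 ± 0.21 and was lower by BRCA2 status (-1.20 ± 0.24 and -0.99 ± 0.17). Its rise in BRCA2-proficient cells was called in 1 of 5 fits that left out 1 library, with values from 0.33 to 0.99. PSPH, its last enzyme, was called in none of these 4 comparisons, with values from -0.27 ± 0.14 to 0.40 ± 0.14. MTHFD2, a mitochondrial folate enzyme (chr2:74413299-74444692), had 5342 and 6732 counts untreated and 8769, 10246 and 10287 with GSK3i in BRCA2-proficient cells, and 3365, 3829 and 3965 untreated and 6229, 5819 and 5853 with GSK3i in BRCA2-deficient cells. Its rise was nearly equal on both sides, 0.68 ± 0.15 and 0.68 ± 0.14 (adjusted p = 2.95e-05 and 1.51e-05), and so was its difference by BRCA2 status, -0.72 ± 0.18 and -0.72 ± 0.13 (adjusted p = 0.00294 and 1.87e-06). SHMT2, which feeds the same pathway, rose by 0.76 ± 0.15 and 0.70 ± 0.16. ALDH1L2, a mitochondrial folate dehydrogenase, was lower in BRCA2-deficient cells (-1.20 ± 0.39 and -1.31 ± 0.41) but had -0.15 ± 0.62 and -0.27 ± 0.40 with GSK3i. The proline enzymes PYCR1 and ALDH18A1 rose with GSK3i in BRCA2-proficient cells (0.85 ± 0.15 and 0.57 ± 0.12). Neither was called by BRCA2 status.

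The 2 enzymes of transsulfuration, which turn homocysteine into cysteine, were both lower by BRCA2 status, while CBS alone was called with GSK3i. CBS rose by 0.81 ± 0.20 and 0.74 ± 0.20 with GSK3i and was lower in BRCA2-deficient cells (-1.07 ± 0.25 and -1.12 ± 0.18). Its rise in BRCA2-proficient cells was called in 2 of 5 fits that left out 1 library, with values from 0.52 to 1.18. CTH (chr1:70876901-70905534) had 298 and 402 counts untreated and 333, 501 and 398 with GSK3i in BRCA2-proficient cells, which overlapped, and 128, 165 and 126 untreated and 101, 119 and 118 with GSK3i in BRCA2-deficient cells. Its values with GSK3i were 0.21 ± 0.22 (SE, adjusted p = 0.479) and -0.31 ± 0.24 (SE, adjusted p = 0.352), and by BRCA2 status -1.35 ± 0.25 (SE, adjusted p = 1.2e-05) and -1.87 ± 0.22 (SE, adjusted p = 3.32e-14).

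The 7 amino acid transporters had the highest median with GSK3i (0.83 and 0.93). Of these 4 rose in BRCA2-proficient cells, 6 rose in BRCA2-deficient ones, and 1 fell in each. By BRCA2 status 5 were lower untreated and 4 under GSK3i. SLC7A5, the light chain of the exchanger that imports leucine (chr16:87863629-87903113), had 3890 and 5466 counts untreated and 9392, 14281 and 11700 with GSK3i in BRCA2-proficient cells. Its BRCA2-deficient values were 1436, 1370 and 1636 untreated and 5688, 4594 and 5009 with GSK3i, so that with GSK3i 2 of 3 libraries lay between the untreated BRCA2-proficient values and 1 above them. It rose 2.5-fold (log2 1.32 ± 0.19, adjusted p = 7.95e-11) and 3.44-fold (log2 1.78 ± 0.16, adjusted p = 9.24e-26), the latter the largest increase of any member. By BRCA2 status it differed by -1.68 ± 0.21 (SE, adjusted p = 4.87e-13) untreated and -1.22 ± 0.18 (SE, adjusted p = 7.06e-09) under GSK3i.

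SLC3A2, the heavy chain that carries SLC7A5 to the membrane (chr11:62623476-62656352), rose with GSK3i as its partner did but was not called by BRCA2 status. It had 2578 and 4566 counts untreated and 6827, 6504 and 5954 with GSK3i in BRCA2-proficient cells, and 2824, 2271 and 2573 untreated and 7437, 5588 and 7117 with GSK3i in BRCA2-deficient cells. The log2 fold changes were 0.83 ± 0.20 (SE, adjusted p = 0.000163) and 1.39 ± 0.18 (SE, adjusted p = 6.21e-13) with GSK3i, the first from 0.48 to 1.30 without single libraries and called in 2 of 5 such fits. By BRCA2 status they were -0.51 ± 0.25 (SE, adjusted p = 0.22) untreated and 0.06 ± 0.15 (SE, adjusted p = 0.904) under GSK3i, with a 95% interval from -0.24 to 0.35 for the latter. SLC1A4, a carrier of neutral amino acids (chr2:65215611-65250999), had 1149 and 1501 untreated and 2043, 2887 and 2361 with GSK3i in BRCA2-proficient cells, and 765, 689.9 and 782 untreated and 1310, 1020 and 1193 with GSK3i in BRCA2-deficient cells. It rose by 0.86 ± 0.18 and 0.65 ± 0.17 with GSK3i (adjusted p = 1.29e-05 and 0.00084) and had -0.85 ± 0.19 and -1.06 ± 0.18 by BRCA2 status (adjusted p = 0.000544 and 4.08e-07). The glutamine carrier SLC1A5 rose by 0.85 ± 0.14 and 0.93 ± 0.16 and was not called by BRCA2 status (-0.39 ± 0.17 and -0.31 ± 0.14).

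SLC7A1, the carrier of arginine and lysine (chr13:30083551-30169825), had 4277 and 5247 untreated and 5133, 7302 and 7262 with GSK3i in BRCA2-proficient cells, with overlap, and 2366, 2740 and 3664 untreated and 3738, 4650 and 5021 with GSK3i in BRCA2-deficient cells. It rose in BRCA2-deficient cells (0.61 ± 0.21, adjusted p = 0.0181) and was lower by BRCA2 status without treatment (-0.72 ± 0.23, adjusted p = 0.028). Under GSK3i the value was -0.56 ± 0.20 (SE, adjusted p = 0.0548), and with the replicate block -0.55 ± 0.09, adjusted p = 1.71e-07. SLC38A2, a sodium-coupled carrier of small neutral amino acids, went the other way. It had 31597 and 33343 counts in untreated and 17743, 17869 and 19726 in GSK3i-treated BRCA2-proficient cells, and 18031, 23544 and 21532 untreated and 8737, 13930 and 10591 with GSK3i in BRCA2-deficient cells. It fell with GSK3i in both states, with log2 fold changes of -0.83 ± 0.12 (SE, adjusted p = 1.15e-10) and -0.93 ± 0.21 (SE, adjusted p = 0.000125), and like most members it was lower in BRCA2-deficient cells (-0.65 ± 0.18 and -0.74 ± 0.19). The glycine transporter SLC6A9, with few counts, rose in BRCA2-deficient cells by 1.26 ± 0.36 and was lower by BRCA2 status (-1.93 ± 0.43 and -1.34 ± 0.35).

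**Figure D4:**
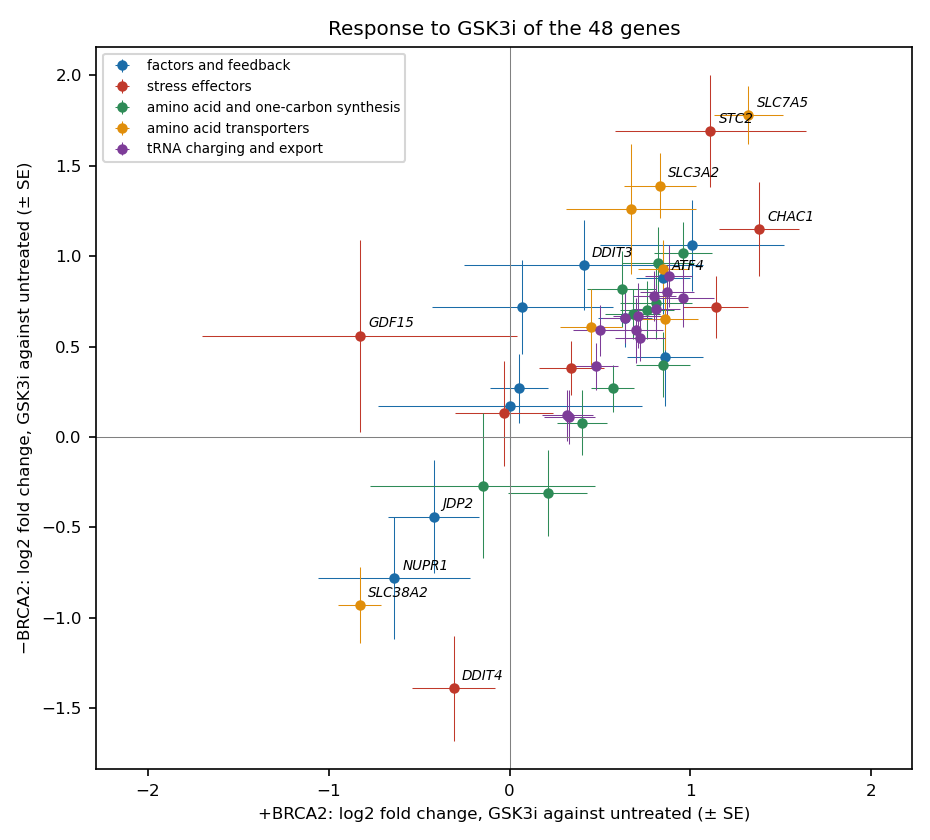
Log2 fold change with GSK3i in BRCA2-deficient cells (vertical axis) against that in BRCA2-proficient cells (horizontal axis) for the 48 genes, each with ± SE and coloured by role. Most genes lie at positive values on both axes, SLC38A2 is negative on both, and DDIT4 is at -1.39 on the vertical and -0.31 on the horizontal axis.

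Genes for tRNA charging and export rose by similar amounts with GSK3i and had the smallest median difference by BRCA2 status. Of the 13, 10 rose in each BRCA2 state, with log2 fold changes of 0.32 to 0.96 and 0.11 to 0.89, and 3 and then 5 were lower in BRCA2-deficient cells. XPOT, which exports tRNA from the nucleus (chr12:64798172-64844905), had 8334 and 9014 counts untreated and 12130, 14344 and 16197 with GSK3i in BRCA2-proficient cells, and 4447, 5803 and 6190 untreated and 7475, 9125 and 8188 with GSK3i in BRCA2-deficient cells. It rose by 0.70 ± 0.15 and 0.59 ± 0.18 (adjusted p = 1.58e-05 and 0.00605), and its difference by BRCA2 status, -0.68 ± 0.20 (SE, adjusted p = 0.0124) and -0.79 ± 0.17 (SE, adjusted p = 0.000107), was the largest of this group. IARS1, the isoleucine synthetase (chr9:94972489-95056136), had 9156 and 9774 untreated and 13234, 15682 and 15740 with GSK3i in BRCA2-proficient cells, and 5715, 6551 and 6833 untreated and 9870, 10109 and 10292 with GSK3i in BRCA2-deficient cells. Its log2 fold changes were 0.64 ± 0.13 and 0.66 ± 0.14 with GSK3i (adjusted p = 1.28e-05 and 2.33e-05) and -0.60 ± 0.17 and -0.57 ± 0.13 by BRCA2 status (adjusted p = 0.00787 and 0.000783). No library of any pair overlapped.

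TARS1 and NARS1, the threonine and asparagine synthetases, rose by similar amounts but stayed short of the size threshold by BRCA2 status. TARS1 (chr5:33440802-33468196) had 6894 and 7764 counts untreated and 12396, 13543 and 12833 with GSK3i in BRCA2-proficient cells, and 5373, 5588 and 5568 untreated and 10321, 9648 and 8451 with GSK3i in BRCA2-deficient cells. Its rise was 0.80 ± 0.12 (SE, adjusted p = 2.74e-09) and 0.78 ± 0.14 (SE, adjusted p = 8.42e-07), and by BRCA2 status the values were -0.44 ± 0.15 and -0.45 ± 0.13 (adjusted p = 0.0454 and 0.00618). NARS1 (chr18:55267888-55289445) had 6271 and 6912 untreated and 10737, 11996 and 12280 with GSK3i in BRCA2-proficient cells, and 4713, 5368 and 5274 untreated and 8246, 8662 and 8268 with GSK3i in BRCA2-deficient cells. It rose by 0.81 ± 0.13 (SE, adjusted p = 4.73e-09) and 0.71 ± 0.13 (SE, adjusted p = 1.26e-06), and by BRCA2 status had -0.39 ± 0.16 and -0.48 ± 0.12 (adjusted p = 0.113 and 0.00264). CARS1, GARS1, SARS1, YARS1, MARS1 and AARS1 also rose in both states, by 0.50 ± 0.15 (AARS1) to 0.96 ± 0.17 (CARS1) in BRCA2-proficient cells. WARS1, EPRS1 and LARS1 were called in none of the 4 comparisons. The 6 synthetase genes printed above with matching promoter letters, AARS1, CARS1, IARS1, MARS1, NARS1 and TARS1, all rose with GSK3i in both states. Of the genes of this group with a promoter entry but no match, XPOT, GARS1 and SARS1 rose in both states, and EPRS1 and WARS1 were not called.

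Other lists of related genes, fixed with earlier results of these data known, were set beside the members. Of all genes tested, 11.8% and 11.6% rose with GSK3i in BRCA2-proficient and -deficient cells, and 14.2% and 13.8% fell. By BRCA2 status 4.14% and 3.05% were lower, untreated and under GSK3i, and 2.77% and 3.76% were higher. Of 8 other cytosolic tRNA synthetases 5 rose with GSK3i in each BRCA2 state (median log2 fold change 0.78 and 0.60), led by FARSA (1.0 and 0.90), a subunit of the phenylalanine synthetase, with KARS1, the lysine synthetase, second in BRCA2-proficient cells (0.91) and HARS1, the histidine synthetase, second in BRCA2-deficient cells (0.77). By BRCA2 status none of the 8 was called by DESeq2 or edgeR, with 0 and 1 at an unadjusted p below 0.05 and medians of 0.11 and -0.09. Of 17 mitochondrial synthetases 6 (35.3%) and 3 (17.6%) rose, led by MARS2 (1.40 and 1.27), and the medians were 0.25 and 0.10. The share in BRCA2-deficient cells was thus near that of all genes. None of the 17 was called by BRCA2 status by DESeq2 or edgeR, with 1 and 3 at an unadjusted p below 0.05. A list of 13 genes held eIF2α, the kinases and a phosphatase subunit that act on it, eIF2B, and also GCN1 and DELE1. Of the 13, 8 and 6 rose with GSK3i, led by EIF2S1, which encodes eIF2α itself (1.02 and 0.92). EIF2AK3, an eIF2α kinase, fell in BRCA2-proficient cells (-0.50). By BRCA2 status none of the 13 was called untreated by DESeq2 or edgeR, with 0 at an unadjusted p below 0.05. Under GSK3i EIF2AK3 was higher (0.63), though edgeR called none.

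Among 16 genes of the unfolded protein response of the endoplasmic reticulum, 1 rose and 1 fell with GSK3i in BRCA2-proficient cells, 3 fell in BRCA2-deficient cells, and the medians were -0.08 and -0.10. The chaperone gene DNAJB9 fell in both (-0.64 and -0.76). By BRCA2 status 1 was higher and 1 lower untreated, DNAJB9 (0.55) and ERN1, a sensor of misfolded protein (-0.89), though edgeR called neither. Under GSK3i none was called by DESeq2 or edgeR, with 4 at an unadjusted p below 0.05. Of 14 other reported ATF4 targets 13 were tested. With GSK3i 5 and 4 rose, and KLHL24 fell in both (-3.55 and -2.75). By BRCA2 status 4 and 6 were lower, SLC7A11, the cystine carrier, among them (-2.40 and -1.70), and HMOX1, haem oxygenase, was higher in both (0.83 and 0.91). With edgeR 4 and 4 were lower, and 1 and 0 higher. As descriptions, the medians by BRCA2 status were -0.38 and -0.39 in these other targets, -0.39 and -0.47 in the members for tRNA charging, and -1.70 and -1.26 in the stress effectors.

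**Figure D5:**
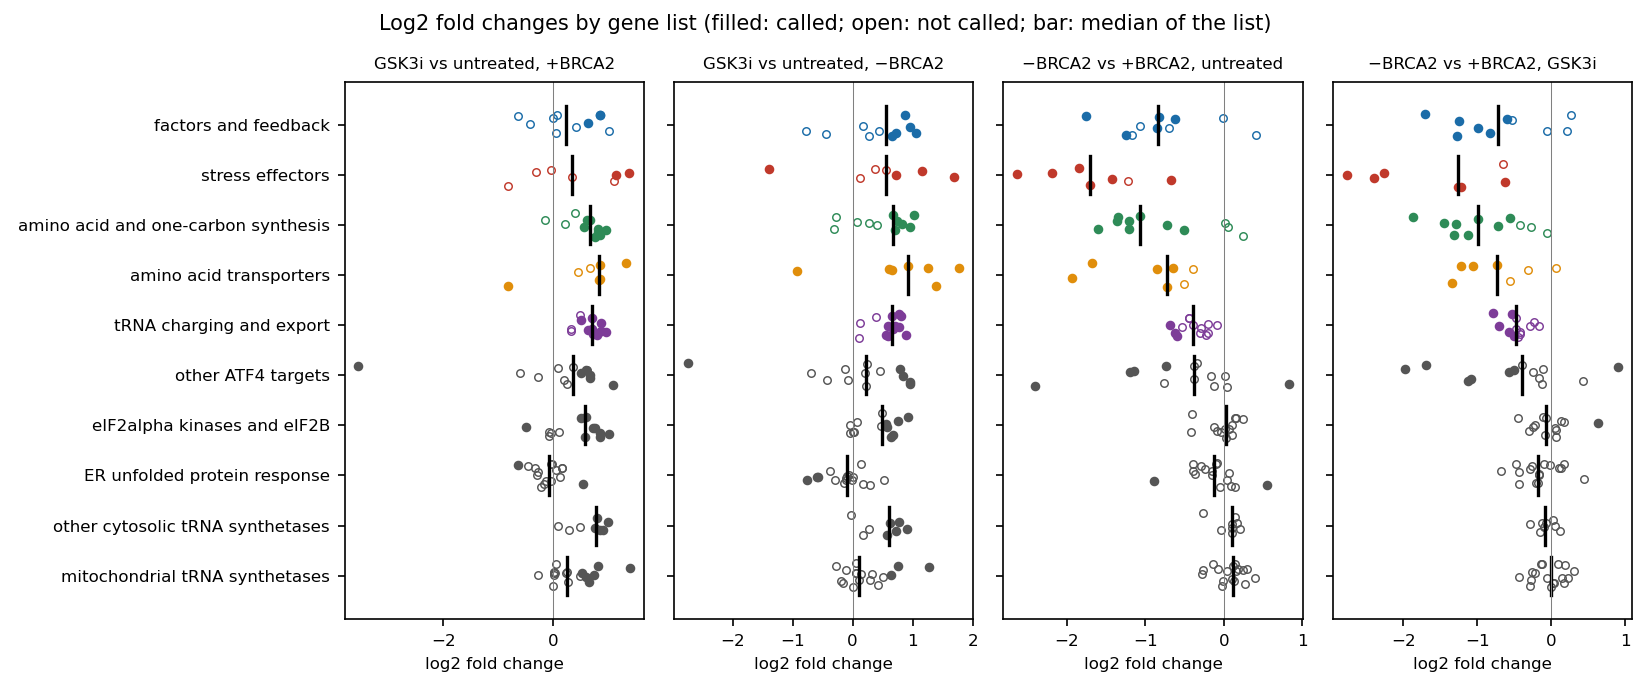
Log2 fold change (horizontal axes) of each gene of the 5 member groups and 5 other lists (rows) in 4 comparisons (panels), with filled points for called genes and a bar for the median of the list. With GSK3i the tRNA charging and other cytosolic synthetase lists shift to the right, and the mitochondrial list less (medians 0.25 and 0.10). By BRCA2 status the stress effectors, synthesis enzymes and transporters lie to the left. The other cytosolic and mitochondrial synthetases centre near 0 there.

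The comparisons with GSK3i in the 2 BRCA2 states share no library, and neither do the comparisons by BRCA2 status without and with GSK3i. The counts that follow are of members only, and the share of all genes called in both comparisons of a pair was not determined. Of the genes that rose with GSK3i, 24 rose in both states, 3 in BRCA2-proficient cells alone (ALDH18A1, CEBPB and PYCR1) and 6 in BRCA2-deficient cells alone (DDIT3, PPP1R15A, SLC6A9, SLC7A1, STC2 and TRIB3). This split depended on the fit, as edgeR called STC2 and TRIB3 in BRCA2-proficient cells too, and PPP1R15A and SLC7A1 in neither state. By BRCA2 status 26 were lower both untreated and under GSK3i, SLC7A1 untreated alone, and ATF3, CARS1 and GARS1 under GSK3i alone. None of these differences passed the test of the interaction itself, in which DESeq2 called 0 of the 48 genes and 0.0345% of 17371 genes. At an unadjusted p below 0.05 there were 3, ALDH18A1 (-0.32 ± 0.12), DDIT4 and PYCR1 (-0.46 ± 0.22), and edgeR called 0. The SE of the interaction was 0.12 to 0.83 on the log2 scale, so differences in response of the size of the response itself could be missed for the most variable genes.

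GSK3i was also compared within cells given siβ-catenin. In BRCA2-deficient cells, 15 of the 48 genes rose and 4 fell, against 8.56% and 11.5% of 17603 genes, with a median of 0.36. ATF4 had 4193, 3708 and 5008 counts with siβ-catenin alone and 7703, 6137 and 6237 with GSK3i as well, and rose by 0.64 ± 0.17 (SE, adjusted p = 0.00166). DDIT3 had 405, 372 and 636, then 1243, 940.1 and 1309 with GSK3i (1.31 ± 0.22, adjusted p = 2.37e-07), and SLC3A2 2422, 2118 and 3199, then 5412, 4594 and 5604 with GSK3i (1.02 ± 0.18, adjusted p = 9.23e-07). In all of these genes, and in TARS1, the groups were apart. TARS1 rose from 5597, 5363 and 5343 to 9084, 8298 and 7614 (0.62 ± 0.14, adjusted p = 0.000102). TRIB3 had 1070, 758 and 1029, then 1918, 1501 and 1417 with GSK3i (0.77 ± 0.19, adjusted p = 0.000694), CEBPG 2310, 2228 and 2658, then 3580, 3171 and 3421 with GSK3i (0.50 ± 0.14, adjusted p = 0.00405). The genes that fell were JDP2 (-1.02 ± 0.28), ALDH1L2 (-0.90 ± 0.28), CTH (-0.80 ± 0.22) and SLC38A2 (-0.60 ± 0.21). JDP2 had 281, 152 and 269.9, then 147, 84.6 and 112 with GSK3i, CTH 150.4, 156 and 133, then 84.0, 76.6 and 91.1 with GSK3i. With the replicate number as a block DDIT4 (-0.57 ± 0.17, adjusted p = 0.00276) and NUPR1 (-0.56 ± 0.18, adjusted p = 0.00679) fell as well. The count rested in part on single libraries, as without replicate 1 of either group 12 genes were called. Of the 19 calls edgeR kept 15, without PHGDH, PPP1R15A, SLC38A2 and SLC7A5, and 1 model over all groups kept 6. Only ATF4, DDIT3, SLC3A2 and TARS1 were called in all fits.

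PSAT1, ASNS and SLC7A5 also rose in this comparison, and CHAC1, STC2 and SESN2 were not called. When 1 library was left out, PSAT1 and SLC7A5 were each called in 4 of 6 fits and ASNS in 3 of 6. PSAT1 had 2045, 1988 and 1881 counts with siβ-catenin and 3275, 2775 and 2449 with GSK3i as well (0.53 ± 0.16, adjusted p = 0.00613), ASNS 2970, 2629 and 3739, then 5148, 3955 and 4262 with GSK3i (0.52 ± 0.18, adjusted p = 0.0201). SLC7A5 had 2135, 1803 and 3286, then 3768, 3526 and 3792 with GSK3i (0.62 ± 0.21, adjusted p = 0.0165), less than the 1.78 ± 0.16 seen with control siRNA. It was the only member called in the interaction of GSK3i and siβ-catenin in BRCA2-deficient cells (-1.17 ± 0.29, adjusted p = 0.0104), where 0.337% of 18114 genes were lower. That call was lost without replicate 2 of the untreated or of the doubly treated group, and edgeR called 0 there, with 10 of 48 members at an unadjusted p below 0.05 in DESeq2. With the replicate number as a block, which the correlations of same-numbered libraries bear out in these cells, 5 more were called: STC2 (-1.41 ± 0.18, adjusted p = 8.59e-12), SLC6A9 (-1.43 ± 0.41, adjusted p = 0.0272), CHAC1 (-0.84 ± 0.26, adjusted p = 0.0488) and CBS (-0.76 ± 0.17, adjusted p = 0.000746), all lower, and DDIT4 (0.74 ± 0.22, adjusted p = 0.0436), higher. CHAC1 had 227, 174 and 410.3 counts with siβ-catenin and 315, 287 and 376 with both, STC2 735, 431 and 719, then 1015, 526 and 835 with GSK3i, SESN2 479, 454 and 689, then 624, 658 and 813 with GSK3i. In these 3 effectors the groups overlapped. For the rest of the genes named above, the ranges with siβ-catenin alone and with both were 2714 to 3065 and 3454 to 4414 for MTHFD2, 895 to 1046 and 1088 to 1330 for SLC1A4, and 3052 to 3650 and 3429 to 4452 for SLC7A1. DDIT4 had 279.8 to 483 and 189 to 313, with overlap. XPOT had 4329 to 5151 and 5826 to 7267, IARS1 6268 to 6632 and 8373 to 8692, and NARS1 5027 to 5594 and 6932 to 7620, all apart but under the size threshold.

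Few members were called when β-catenin was depleted in BRCA2-deficient cells. Under GSK3i, siβ-catenin left 3 higher and 3 lower than control siRNA, against 2.95% and 2.57% of 17021 genes. Those higher were the secreted factor GDF15 (1.35 ± 0.43, adjusted p = 0.0308), NUPR1, a stress-induced chromatin regulator (1.22 ± 0.28, adjusted p = 0.000824), and DDIT3 (0.83 ± 0.22, adjusted p = 0.00577). Those lower were STC2 (-1.07 ± 0.29, adjusted p = 0.00624), PSAT1 (-0.62 ± 0.18, adjusted p = 0.0164) and MTHFD2 (-0.58 ± 0.14, adjusted p = 0.00279). ATF4 had -0.24 ± 0.20 (SE, adjusted p = 0.607), with a 95% interval from -0.63 to 0.15. Without GSK3i, siβ-catenin left 3 members higher, against 1.21% of 17320, namely SLC6A9 (1.43 ± 0.35, adjusted p = 0.00589), ADM2 (1.08 ± 0.31, adjusted p = 0.03) and NUPR1 (1.04 ± 0.29, adjusted p = 0.0207). With the replicate number as a block 8 were higher, with SLC7A5 (0.66 ± 0.16, adjusted p = 0.00349), CHAC1 (0.84 ± 0.24, adjusted p = 0.0155), ALDH1L2, CBS and TRIB3 in addition. By edgeR neither comparison had a called member, with 12 and 16 at an unadjusted p below 0.05 in DESeq2. Under GSK3i the count was 2 without replicate 2 of GSK3i or replicate 3 of the doubly treated group and 3 without replicate 2 of the latter. Without GSK3i it was 0 without replicate 2 of untreated or replicate 1 of siβ-catenin cells, 1 without replicate 3 of siβ-catenin cells, and 5 without replicate 1 of untreated or replicate 2 of siβ-catenin cells.

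In BRCA2-proficient cells the siβ-catenin libraries include the 2 in doubt. Under GSK3i 15 of the 48 genes were lower with siβ-catenin than with control siRNA, against 1.92% of 16381 genes, and 0 were higher by DESeq2 or edgeR, with 0 at an unadjusted p below 0.05. ATF4 had 8852, 7610 and 6822 counts, ASNS 6524, 10268 and 4451, PSAT1 5414, 7120 and 4370 and SLC7A5 4807, 8469 and 4520, each below the libraries with GSK3i alone. The log2 fold changes were -0.59 ± 0.15 (SE, adjusted p = 0.00599) for ATF4, -0.85 ± 0.27 (SE, adjusted p = 0.0371) for ASNS, -0.88 ± 0.21 (SE, adjusted p = 0.00165) for PSAT1 and -0.96 ± 0.26 (SE, adjusted p = 0.00713) for SLC7A5. STC2, with 1006, 1196 and 636 counts, differed most (-1.42 ± 0.24, adjusted p = 1.66e-06). CHAC1 had 910.4, 992 and 290.3 (-1.19 ± 0.35, adjusted p = 0.0183), and with the replicate block -1.35 ± 0.61, adjusted p = 0.186. SESN2 had 1569, 1820 and 841 (-1.01 ± 0.26, adjusted p = 0.00471). Also lower were CEBPG, MTHFD2, SLC1A4, SLC7A1, XPOT, GARS1, CARS1 and VLDLR, between -0.79 ± 0.23 for SLC1A4 and -0.50 ± 0.17 for VLDLR, the latter -0.49 ± 0.16, adjusted p = 0.0292 with the block and so under the size threshold. With the block TRIB3 (-1.01 ± 0.19, adjusted p = 9.32e-06), CTH (-1.04 ± 0.28, adjusted p = 0.00799) and CBS (-0.69 ± 0.16, adjusted p = 0.00101) were lower in addition. Without the library labelled GSK3i and siβ-catenin replicate 2, 27 were lower, against 2.16% of all genes, with ATF4 at -0.58 ± 0.15, adjusted p = 0.00403 and ASNS at -1.23 ± 0.19, adjusted p = 3.33e-08. Without replicate 2 of the GSK3i libraries STC2 alone was called, as it was by edgeR, against 0.598% of all genes. Without replicate 3 of the GSK3i or of the doubly treated libraries 9 and 8 were called. In the interaction of BRCA2 status and siβ-catenin under GSK3i 0 members were called by DESeq2 and by edgeR, 11 were at an unadjusted p below 0.05, and 0.0057% of 17529 genes were called. Without that library 4 were called, all higher: TRIB3 (1.66 ± 0.39, adjusted p = 0.0399), SESN2 (1.47 ± 0.33, adjusted p = 0.027), ADM2 (1.71 ± 0.39, adjusted p = 0.0287) and SLC1A4 (1.08 ± 0.24, adjusted p = 0.027).

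The members stood far apart in the 2 BRCA2-proficient libraries labelled siβ-catenin. ATF4 had 12858 and 5189 counts in replicates 2 and 3, ASNS 21909 and 4244, CHAC1 2183 and 204, TRIB3 11036 and 746 and SLC7A5 17821 and 3310. In all 5 the first value was above every BRCA2-proficient library with GSK3i alone. GSK3i after siβ-catenin gave no call among the 48 genes by DESeq2 or edgeR, with 0 at an unadjusted p below 0.05 and 0.0529% of 17010 genes called. The median log2 fold change of the 48 genes was -0.39 with all libraries. It was 0.51 without the library labelled siβ-catenin replicate 2 alone, and -0.88 without replicate 3 alone. Without both libraries in doubt, 3 libraries were left and 9 members were higher, against 2.1% of 29308 genes, and SLC38A2 was lower. Those higher included CEBPB (1.34 ± 0.32, adjusted p = 0.000753), SLC3A2 (0.83 ± 0.16, adjusted p = 2.11e-05), CARS1 (0.68 ± 0.17, adjusted p = 0.00149) and ATF4 (0.60 ± 0.16, adjusted p = 0.00382). In that fit the lone siβ-catenin library is assumed to vary as the other group does, and the filter on low counts removed no gene. That library, replicate 3, itself lay between the ranges with and without GSK3i in PDCD4 (1056) and YPEL2 (126). Without GSK3i, siβ-catenin gave 1 call, SLC38A2, which was lower (-0.59 ± 0.16, adjusted p = 0.014), against 2.1% of 16785 genes. By edgeR it was 0, with 7 at an unadjusted p below 0.05 in DESeq2. The median log2 fold change of the 48 genes was 0.55 with all libraries. It was 1.03 without replicate 3 of siβ-catenin and -0.45 without replicate 2, so its sign turned on which library was kept. The call of SLC38A2 was lost without either untreated library.

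By BRCA2 status after siβ-catenin, 19 members were lower in BRCA2-deficient cells, against 13.8% of 17811 genes. They included PSAT1 (-2.24 ± 0.63, adjusted p = 0.00222), ASNS (-2.09 ± 0.75, adjusted p = 0.0217), SLC7A5 (-2.15 ± 0.82, adjusted p = 0.0309), CEBPG (-1.50 ± 0.31, adjusted p = 2.13e-05), XPOT (-1.42 ± 0.24, adjusted p = 6.63e-08) and IARS1 (-1.22 ± 0.23, adjusted p = 2.02e-06). Without the library labelled siβ-catenin replicate 2, 5 were lower, against 9.32% of all genes, namely PSAT1 (-0.99 ± 0.19, adjusted p = 8.12e-06), XPOT (-1.0 ± 0.20, adjusted p = 9.87e-06), IARS1, CEBPG and MTHFD2. NUPR1 (2.43 ± 0.38, adjusted p = 1.45e-08) and ADM2 (1.09 ± 0.40, adjusted p = 0.0344) were higher. The calls without replicate 2 set 1 BRCA2-proficient library, replicate 3, which has no spread of its own, against 3. Its PDCD4 (1056) and YPEL2 (126) levels lay between the ranges with and without GSK3i. The median log2 fold change of the 48 genes was -1.04 with all libraries. It was -1.51 without replicate 3 of the BRCA2-proficient siβ-catenin group and -0.05 without its replicate 2. Without replicate 1 or 2 of the BRCA2-deficient siβ-catenin libraries 12 were called, and the share of all genes in those fits is not given. With both GSK3i and siβ-catenin 7 were lower in BRCA2-deficient cells, against 4.36% of 17035 genes: CTH (-1.46 ± 0.43, adjusted p = 0.0117), CHAC1 (-1.17 ± 0.36, adjusted p = 0.0169), SESN2 (-1.02 ± 0.27, adjusted p = 0.00449), PSAT1 (-1.0 ± 0.21, adjusted p = 0.0002), SLC7A5 (-0.69 ± 0.24, adjusted p = 0.0473), XPOT (-0.60 ± 0.16, adjusted p = 0.00509) and MTHFD2 (-0.55 ± 0.19, adjusted p = 0.0445). CHAC1 had -1.01 ± 0.63, adjusted p = 0.355 with the replicate block, which added DDIT4 (-1.40 ± 0.29, adjusted p = 6.15e-05), SLC38A2 (-0.59 ± 0.15, adjusted p = 0.00168) and CBS (-0.58 ± 0.20, adjusted p = 0.0353) as lower and NUPR1 (1.23 ± 0.37, adjusted p = 0.0115) as higher. Without the library in doubt SESN2, PSAT1 and XPOT were still called, and IARS1 and NUPR1 were new. Leaving out other single libraries gave 4 (replicate 1 of either group), 2 (replicate 2 or 3 of BRCA2-deficient cells) or 13 (replicate 3 of BRCA2-proficient cells). For the interaction of GSK3i and siβ-catenin in BRCA2-proficient cells, 9 members were called lower, against 3.77% of 17079 genes. By edgeR the count was 0, with 24 at an unadjusted p below 0.05 in DESeq2. Without both libraries in doubt none of these 9 was called.

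The BRCA2-proficient values that follow are those with siβ-catenin alone (replicates 2 and 3) and with both treatments (replicates 1, 2 and 3). In each of these genes replicate 2 was the higher of the first group. CEBPG had 9463 and 3938, and 4837, 4760 and 4010. DDIT3 had 1574 and 408, and 1417, 730.4 and 901. Replicate 2 of the doubly treated group stood several-fold above the others in JDP2 and CTH. JDP2 had 466 and 184, and 123, 510.0 and 91.9. CTH had 709.7 and 167, and 155, 428 and 106. MTHFD2 had 12138 and 4800, and 5749, 6988 and 4860. The spread was narrower in MTHFD2 and in the genes that follow. Of the transporters, SLC3A2 had 6881 and 2601, and 5081, 4285 and 4096. The exporter XPOT had 15733 and 9264, and 9944, 8975 and 9926. Here the doubly treated libraries lay close together. Among the synthetases, TARS1 had 14784 and 7442, and 10513, 7960 and 9458.

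The genes whose levels followed ATF4 most closely over the 22 libraries were found among 11897 genes with a mean of at least 100 normalised counts. By Spearman's rho on log2 levels they were SHMT2 and CARS1 (both 0.98, both members), LINC00662, a long noncoding RNA, and EIF2S2, which encodes the β subunit of eIF2 (both 0.97), and MTHFD1L, a mitochondrial folate enzyme (0.96). The 47 other members had a median rho of 0.84, with 26 above 0.8. All 11897 genes had a median of 0.15, with 608 above 0.8. The tRNA charging genes were closest (median 0.93), and the factors least close (0.66). NUPR1 (-0.25) and SLC38A2 (-0.28) were the 2 below 0. These values describe libraries that share treatments and are given without a test.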

How the data were processed

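RNA-seq of poly(A)-enriched RNA was made from 22 libraries of H1299 cells in 8 groups. The authors aligned reads to GRCh37, removed duplicates, and deposited raw counts per Ensembl gene for reads that mapped uniquely (HISAT2 2.0.4, SAMtools 1.4, Picard 1.9.2 and featureCounts 1.5.0 in the submitters' processing notes), so genes with near-identical copies lose reads. Of 37908 genes 171 had no count, every column belonged to a sample (0 did not), and totals of 18.9 to 29.3 M set the precision of low genes.

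Each comparison was fitted to the libraries of its 2 groups with DESeq2 1.42.0 (R 4.3.3), leaving out genes with fewer than 10 counts in more than 3 libraries (more than 2 where each group had 2). Interactions used 4 groups and genes with 10 counts in at least 3 libraries. P-values were adjusted by Benjamini-Hochberg over all genes tested, and a gene was called at an adjusted p below 0.05 and a log2 fold change beyond 0.5. Normalised counts were divided by size factors and are not corrected for gene length, so levels are not compared between genes. Alternatives were edgeR 4.0.16, TMM factors, no filter, 1 model over all groups, the replicate number as a block, leaving out each library, and, added after seeing the data, leaving out both libraries in doubt. The fits were tested on simulated data.

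Same-numbered libraries deviated together in every comparison with 3 pairs (correlations 0.14 to 0.87), so the block is given beside those results where it changes a call. With 2 pairs it was -0.42 to 0.26, and the block is given only in the closing section.

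Members and lists were chosen with earlier results of these data known. Named in full were the up to 4 genes of each role group with the largest called log2 fold change and a mean of at least 100 normalised counts, and ATF4. Other members, called interactions and up to 2 called genes of each other list and comparison were also named.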

Additional observations from a re-analysis of the deposited data

Results flagged for a closer look

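For 9 members the response to GSK3i differed between siβ-catenin and control siRNA in BRCA2-proficient cells by a test of the interaction (DESeq2). The log2 interaction was -1.19 for the C/EBP factor CEBPG, -1.07 for the tRNA exporter XPOT, -0.98 for the glutamine carrier SLC1A5 and -0.68 for the proline enzyme ALDH18A1. Among tRNA synthetases it was -1.16 for NARS1, -1.11 for YARS1, -1.05 for TARS1, -0.98 for IARS1 and -0.80 for LARS1. Adjusted p was 0.0142 for XPOT to 0.0488 for SLC1A5. The comparison holds both BRCA2-proficient libraries whose PDCD4 and YPEL2 levels went against their labels. None of the 9 was called without replicate 2 of siβ-catenin alone, without either untreated library, or without replicate 2 or 3 of GSK3i. Without both libraries in doubt the values were between -0.59 for XPOT and -0.35 for YARS1, and none was called.

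In BRCA2-deficient cells the leucine carrier SLC7A5 responded less to GSK3i after siβ-catenin, with an interaction of -1.17 ± 0.29 (SE, adjusted p = 0.0104, DESeq2). All 3 libraries with both treatments (3526 to 3792 normalised counts) lay below all 3 with GSK3i alone (4594 to 5688). Without GSK3i, all 3 libraries with siβ-catenin (1803 to 3286) lay above all 3 untreated ones (1370 to 1636), so the baseline differed as well. The call was lost without replicate 2 of either the untreated or the doubly treated group. It was not made by edgeR (adjusted p = 0.204) or with 1 model over all groups (DESeq2, adjusted p = 0.784).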

How the results depend on the processing

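Of 196 calls of members, DESeq2 with TMM factors kept 191, no filter 195, the replicate block 167, edgeR 121 and 1 model over all groups 113. Leaving out single libraries kept 842 of 1142. In the single-library fits the cause was not tested. For the counts of members in this section, the share of all genes is given only where the report states it. With GSK3i, 16 of 28 calls in BRCA2-proficient and 20 of 32 in BRCA2-deficient cells held in all of these fits, and by BRCA2 status 5 of 27 untreated and 15 of 29 under GSK3i. Members called by edgeR fell to 11 (BRCA2 status untreated), 1 (siβ-catenin under GSK3i, BRCA2-proficient), 2 (BRCA2 status with both treatments) and 0 (siβ-catenin under GSK3i in BRCA2-deficient cells, siβ-catenin alone in either state, and both interactions of GSK3i and siβ-catenin). With 1 model over all groups they were 12 and 17 by BRCA2 status without and with GSK3i, 33 and 4 after siβ-catenin without and with GSK3i, 6 for GSK3i after siβ-catenin in BRCA2-deficient cells, 5 and 0 for siβ-catenin under GSK3i in BRCA2-proficient and -deficient cells, 0 for siβ-catenin alone in BRCA2-deficient cells, and 25 and 0 for its interaction with GSK3i.

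With the replicate number as a block, 11 were called by BRCA2 status after siβ-catenin, 0 and 8 for siβ-catenin alone in BRCA2-proficient and -deficient cells, and 6 for the interaction in BRCA2-deficient cells. With only 2 pairs the block left 25 of the 48 called with GSK3i in BRCA2-proficient cells, and ATF4 had an adjusted p of 0.0667, SLC3A2 0.138 and ASNS 0.124. PHGDH had 0.305, CBS 0.185 and SHMT2 0.108, and with 1 model over all groups PHGDH had 0.18, ASNS 0.129 and CBS 0.112. By BRCA2 status untreated the block left 25 called, ending DDIT4 (0.187), ALDH1L2 (0.071), CBS (0.0703), GDF15 and SLC6A9 (both without an adjusted p), and 1 model over all groups gave DDIT4 0.121. In comparisons with 3 pairs it ended no call beyond those in the report.

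Leaving out 1 library gave 7 to 26 calls by BRCA2 status untreated, 7 to 43 after siβ-catenin and 2 to 13 with both treatments. It gave 0 to 9 and 12 to 23 for GSK3i after siβ-catenin, 1 to 27 and 2 to 6 for siβ-catenin under GSK3i, and 0 to 29 and 0 to 5 for siβ-catenin alone, in BRCA2-proficient and -deficient cells. For the interactions it gave 0 to 4 (BRCA2 status and siβ-catenin), 0 to 35 and 0 to 2 (GSK3i and siβ-catenin). SARS1 by BRCA2 status after siβ-catenin, -0.80 with all libraries, ran from -1.33 to 0.03. Without both libraries in doubt, 10 members were called for GSK3i after siβ-catenin in BRCA2-proficient cells, and 1 in its interaction, GDF15. Low counts limit GDF15, SLC6A9, ADM2 and NUPR1.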

Other observations

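The 48 genes together took 0.575% to 0.606% of all counts in untreated BRCA2-deficient libraries and 0.765% to 0.804% with GSK3i. In BRCA2-proficient libraries they took 0.764% and 0.944% untreated and 1.04% to 1.23% with GSK3i. The library labelled siβ-catenin replicate 2 stood highest, at 1.52%, against 0.725% in replicate 3.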
